A study of Mus musculus with 40 samples.

Results

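The major histocompatibility complex (MHC) antigen presentation genes encode the cell surface molecules that show peptides to T cells and the machinery that loads them. The set described here holds 35 genes, chosen by name and role from the 23079 gene identifiers of a count table: 20 genes of the class I route, 11 of the class II route, 3 subunits of the RFX complex that serves both routes, and Cd1d1, a class I-like chain that presents lipids. All 35 had a row in the table, and 20 of them lie on chromosome 17, where the mouse MHC (H2) is. Of the 35 genes, 33 had enough counts to be tested and H2-T22 and H2-Oa did not.

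Total RNA was sequenced from whole pieces of cervix and myometrium (the muscle of the uterine wall) of pregnant C57BL/6 mice, collected at term, 18.5 days post coitum. There were 4 groups of 10 libraries: cervix of mice given human chorionic gonadotropin (hCG, a luteinizing hormone receptor agonist) into the abdominal cavity, cervix of mice given phosphate-buffered saline (PBS) in the same way, myometrium of hCG mice and myometrium of PBS mice. All mice were of one strain, the labels name no altered allele, and neither dose nor time of injection is stated in the labels. Within a group the labels call the libraries separate samples, numbered 1 to 10, R3 or R4 with gaps, and they do not say which cervix and myometrium libraries came from one mouse.

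Class I molecules, made of a heavy chain and beta-2 microglobulin (B2m), sit on nearly all nucleated cells and carry peptides that the proteasome cuts in the cytosol and the Tap transporter moves into the endoplasmic reticulum. Class II molecules, made of an alpha and a beta chain, belong mainly to dendritic cells, B cells and macrophages and carry peptides from endosomes, where the invariant chain Cd74 is cut away by proteases such as cathepsin S (Ctss). Promoters of both classes hold an X box, bound by the RFX complex and by CREB family factors, and a Y box, bound by NF-Y. The transactivator Ciita works on this module for class II and Nlrc5 for class I, and interferon gamma is a known inducer of both.

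Total counts ran from 6613775 to 22274244 in cervix of hCG mice, from 7255131 to 25028360 in cervix of PBS mice, from 5449239 to 20603741 in myometrium of hCG mice and from 5933199 to 20108002 in myometrium of PBS mice. The tissue labels held against marker genes: in PBS mice 11 of 11 squamous epithelium markers were higher and 8 of 8 smooth muscle markers lower in cervix than in myometrium. Cervix hCG libraries 1, 3 and 5 held the most RNA of neighbouring tissues, with summed skeletal muscle markers of 5855 CPM (counts relative to library size, with TMM factors) in library 1, adipocyte markers of 1907 CPM in library 3 and urothelium markers of 2277 CPM in library 5, against highest values of 255.6, 297.9 and 64.6 CPM among the cervix PBS libraries. Cervix hCG libraries 4 and 9 also exceeded the PBS highest value for adipocyte markers, at 405.5 and 326 CPM, and R3 that for urothelium markers, at 187 CPM. Cervix PBS libraries 5 to 8 had from 3.51% to 17.5% of their counts on Lars2. Lars2 also took 4.61% and 5.63% in myometrium PBS libraries 8 and 2 and 5.22% in myometrium hCG library 3, and at most 0.713% in the other libraries. Calls that change without cervix hCG libraries 1, 3 and 5 or cervix PBS libraries 5 to 8 are named with the results.

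Stretches upstream of 6 genes are shown because they let the promoter module of the class I and class II genes be compared letter by letter. They come from RefSeq (GRCm38.p6), run 5′ to 3′ in the direction of the gene, and have the letters that matched a searched motif on the strand shown in capitals: GAAANNGAA (the core of an interferon-stimulated element), GGGNNTTCC (an NF-kB element core), TGACG (the CREB part of the X box) and ATTGG (the Y box read on this strand).
B2m: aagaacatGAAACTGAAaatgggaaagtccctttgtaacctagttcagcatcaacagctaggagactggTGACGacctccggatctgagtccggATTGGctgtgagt
H2-D1: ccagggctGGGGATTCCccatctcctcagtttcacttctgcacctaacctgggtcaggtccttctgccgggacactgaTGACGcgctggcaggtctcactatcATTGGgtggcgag
H2-Q7: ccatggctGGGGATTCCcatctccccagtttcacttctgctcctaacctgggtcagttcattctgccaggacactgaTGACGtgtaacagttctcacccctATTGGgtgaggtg
H2-Aa: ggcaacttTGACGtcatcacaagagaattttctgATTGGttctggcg
H2-Eb1: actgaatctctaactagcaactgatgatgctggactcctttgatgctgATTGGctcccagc
Ctss: ctttaaatGAAACCGAAatgaaagt
The stretches lie at chr2:122147540-122147646 (+) for B2m, chr17:35262915-35263030 (+) for H2-D1, chr17:35439014-35439127 (+) for H2-Q7, chr17:34287859-34287905 (-) for H2-Aa, chr17:34305760-34305820 (+) for H2-Eb1 and chr3:95526757-95526781 (+) for Ctss. TGACG and ATTGG start 25 bases apart upstream of B2m and H2-D1, 24 apart upstream of H2-Q7 and 26 apart upstream of H2-Aa. The letters TGACG are not in the window of H2-Eb1, which holds ATTGG 59 bases before the start.

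All motifs were searched on both strands in the 250 bases before the start of the 27 genes with a RefSeq promoter entry. TGACG followed on the same strand by ATTGG, with starts 20 to 30 bases apart, was found for 6 of them (B2m, H2-D1, H2-K1, H2-M3, H2-Q7 and H2-Aa) and in 0.381% of all 32851 promoter windows. Singly, TGACG was found for 12 of the 27 genes and in 17.8% of windows, and ATTGG for 20 of the 27 and in 33.8% of windows. GGGNNTTCC was found for 7 genes, H2-D1, H2-K1, H2-Q4, H2-Q6, H2-Q7, H2-Aa and H2-Oa, and in 4.98% of windows. It fixes the gap between GGG and TTCC. The stretch of B2m holds gggaaagtccc, which read on the other strand has GGG before TTCC with a longer gap. That spacing was not searched, so absence from these 7 genes does not show that a promoter lacks an NF-kB element. GAAANNGAA was found for 5 genes, B2m, Erap1, H2-T22, H2-T23 and Ctss, and in 7.13% of windows. This search took only the order with GAAA before GAA. The stretches of H2-D1 and H2-Q7 hold tttcacttc, which read on the other strand has GAA before GAAA. That order was not searched, so absence from the list does not show that a promoter lacks an interferon element. The searched motifs share no letters with each other in the stretches shown. A match is a description of letters, not of a bound site.

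Together the 35 genes held 0.217% ± 0.062 of all counts in cervix of hCG mice, 0.132% ± 0.032 in cervix of PBS mice, 0.243% ± 0.038 in myometrium of hCG mice and 0.212% ± 0.033 in myometrium of PBS mice (SD, n = 10 each). Per kilobase of transcript, B2m was the most abundant in every group, at 595 ± 263 and 264 ± 105 CPM per kb in cervix of hCG and of PBS mice and 834 ± 258 and 657 ± 176 CPM per kb in myometrium of hCG and of PBS mice. The classical heavy chain H2-K1 came next in every group, at 149 ± 40.6 CPM per kb in cervix of hCG mice and 112 ± 31.5 CPM per kb in cervix of PBS mice. In cervix of hCG mice the places below it were taken by H2-Aa (94.2 ± 31.4 CPM per kb), H2-D1 (88.0 ± 21.1 CPM per kb) and Cd74 (84.3 ± 33.3 CPM per kb), and these levels overlapped within their SDs. The transactivators were far lower, at 1.81 CPM per kb for Nlrc5 and 1.62 CPM per kb for Ciita in cervix of hCG mice. At the bottom were H2-T22, at 0.112 CPM per kb, and H2-Oa, the alpha chain of the DM modulator H2-O, at 0.332 CPM per kb in the same group. H2-T22, H2-Q4, H2-Q6 and H2-Q7 belong to families of near-identical genes, and the labels do not say how reads shared between copies were counted, so their levels are uncertain.

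**Figure D1:**
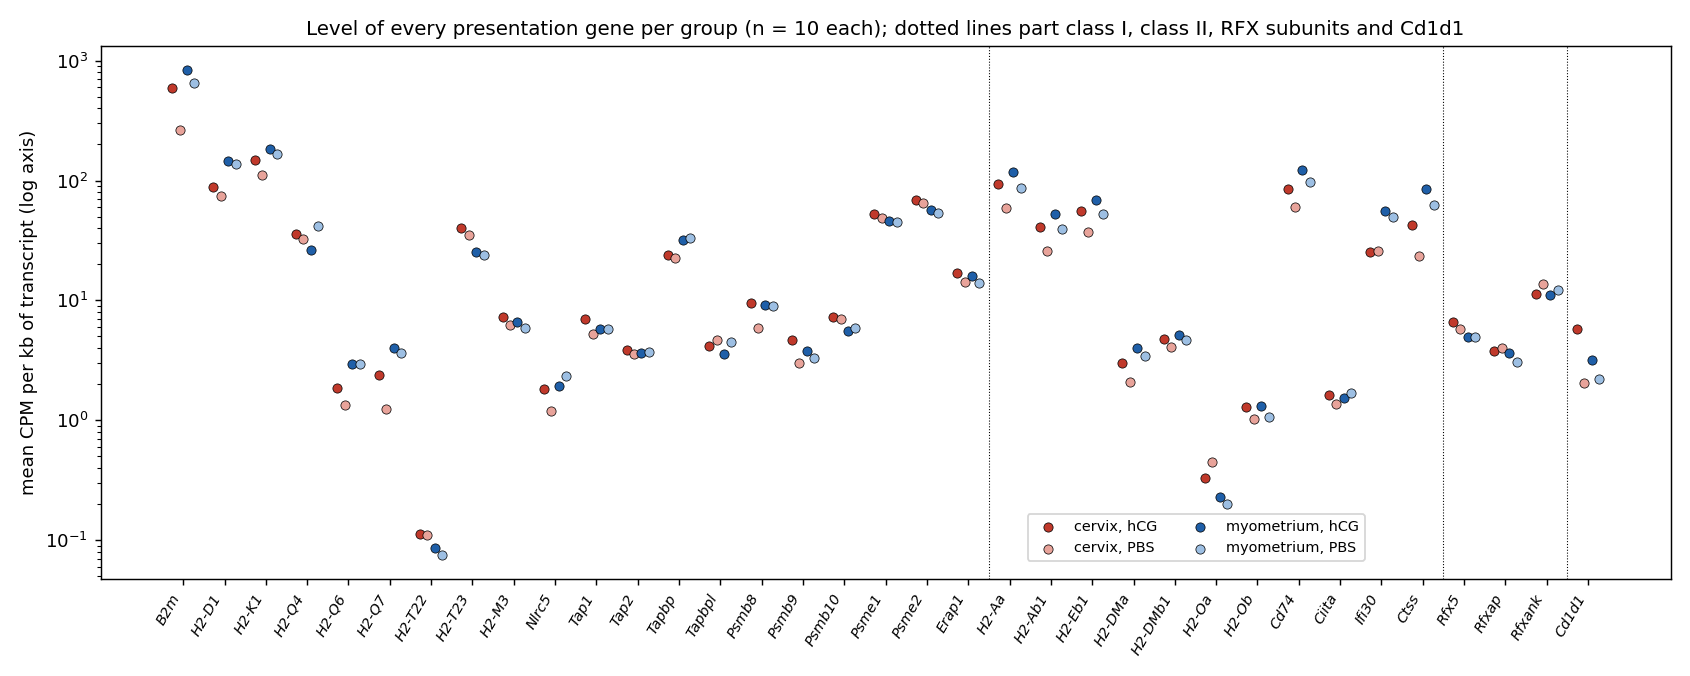
Mean level of each presentation gene (CPM per kb of transcript, log axis) in the 4 groups of 10 libraries, ordered by class. B2m lies highest in every group, and H2-T22 and H2-Oa lie lowest.

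In cervix, 3 of the 33 tested genes rose with hCG and none fell: B2m, Ctss and Cd1d1 (edgeR quasi-likelihood test, adjusted p under 0.05 over all 14932 genes tested, of which 8.91% were called, 4.74% higher and 4.17% lower). The members' share is near that of all genes, and 13 of the 33 had an unadjusted p under 0.05, as 4362 of the 14932 genes did. Most of the other genes had higher fitted levels in hCG mice without passing the threshold. Counting B2m and Ctss too, the log2 fold change was positive for 18 of 19 class I genes (median 0.26) and 9 of 10 class II genes (median 0.52). Over all 14932 genes tested, it was positive for 7585, with a median of 0.0070. Cervix pieces are mixtures of cells, and in such bulk RNA more cells of a type and more RNA per cell cannot be told apart.

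B2m (chr2:122147687-122153082), the light chain that every classical class I molecule needs, stood lowest at 175, with a median of 512 and a highest value of 845 CPM, in the 10 cervix libraries of hCG mice, against 84.1, 219 and 384 CPM in those of PBS mice. Its log2 fold change was 1.20 (SE 0.28, edgeR adjusted p 0.0275). Of the 10 hCG libraries, 9 lay above the PBS median and 7 above the highest PBS library, and libraries 9, 10 and R3 lay among the PBS values. The heavy chains that pair with it stood closer to their PBS levels. H2-K1 ran from 176 to 365 CPM, with a median of 220, in hCG mice, against 113 to 266 CPM, with a median of 169, in PBS mice (log2 fold change 0.44, SE 0.17, edgeR adjusted p 0.0918). All 10 hCG libraries were above the PBS median, yet only 3 exceeded the highest PBS library. H2-D1 ran from 136 to 274 CPM in hCG mice, against 102 to 218 CPM in PBS mice (log2 fold change 0.27, SE 0.15, edgeR adjusted p 0.235). The H2-K1 and H2-D1 coding sequences are closely alike, so reads could be exchanged between them.

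Among the nonclassical heavy chains, H2-Q7, one of the genes of the Qa-2 antigen, had the highest log2 fold change, 0.98 (SE 0.33, edgeR adjusted p 0.0585), at 3.59 ± 2.08 CPM in hCG mice and 1.87 ± 0.817 CPM in PBS mice (SD, n = 10 each). H2-Q6 (0.50), H2-T23 (0.22), H2-Q4 (0.16) and H2-M3 (0.23), the last of which binds peptides that start with formyl-methionine, had smaller log2 fold changes, none past the threshold. H2-T23, the mouse Qa-1 chain, stood at 59.2 ± 16.2 CPM in hCG mice and 51.3 ± 16.0 CPM in PBS mice.

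The immunoproteasome subunits, which replace catalytic subunits of the standard proteasome, did not all have the same size of difference. Psmb8 had a log2 fold change of 0.71 (SE 0.23, edgeR adjusted p 0.0526), Psmb9 of 0.67 (SE 0.23, edgeR adjusted p 0.0672) and Psmb10 of 0.05. The activator subunits Psme1 and Psme2 had log2 fold changes of 0.12 and 0.08. Psmb8 and Psmb9 lie in the class II region beside the transporter genes, and Psmb9 starts head to head with Tap1, without overlap of the annotated genes. Tap1 had a log2 fold change of 0.43 (edgeR adjusted p 0.131), its partner Tap2 of 0.10, and the loading factors Tapbp (tapasin) and Tapbpl of 0.08 and -0.14. Erap1, which trims peptides in the endoplasmic reticulum, had a log2 fold change of 0.26 (edgeR adjusted p 0.238).

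Nlrc5, the class I transactivator, ran from 5.61 to 22.7 CPM, with a median of 13.6, in hCG mice, against 6.77 to 15.0 CPM, with a median of 7.70, in PBS mice (log2 fold change 0.62, SE 0.25, edgeR adjusted p 0.101). Of the hCG libraries 4 lay above the highest and 2 below the lowest PBS library, so the hCG values spread past the PBS values at both ends.

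**Figure D2:**
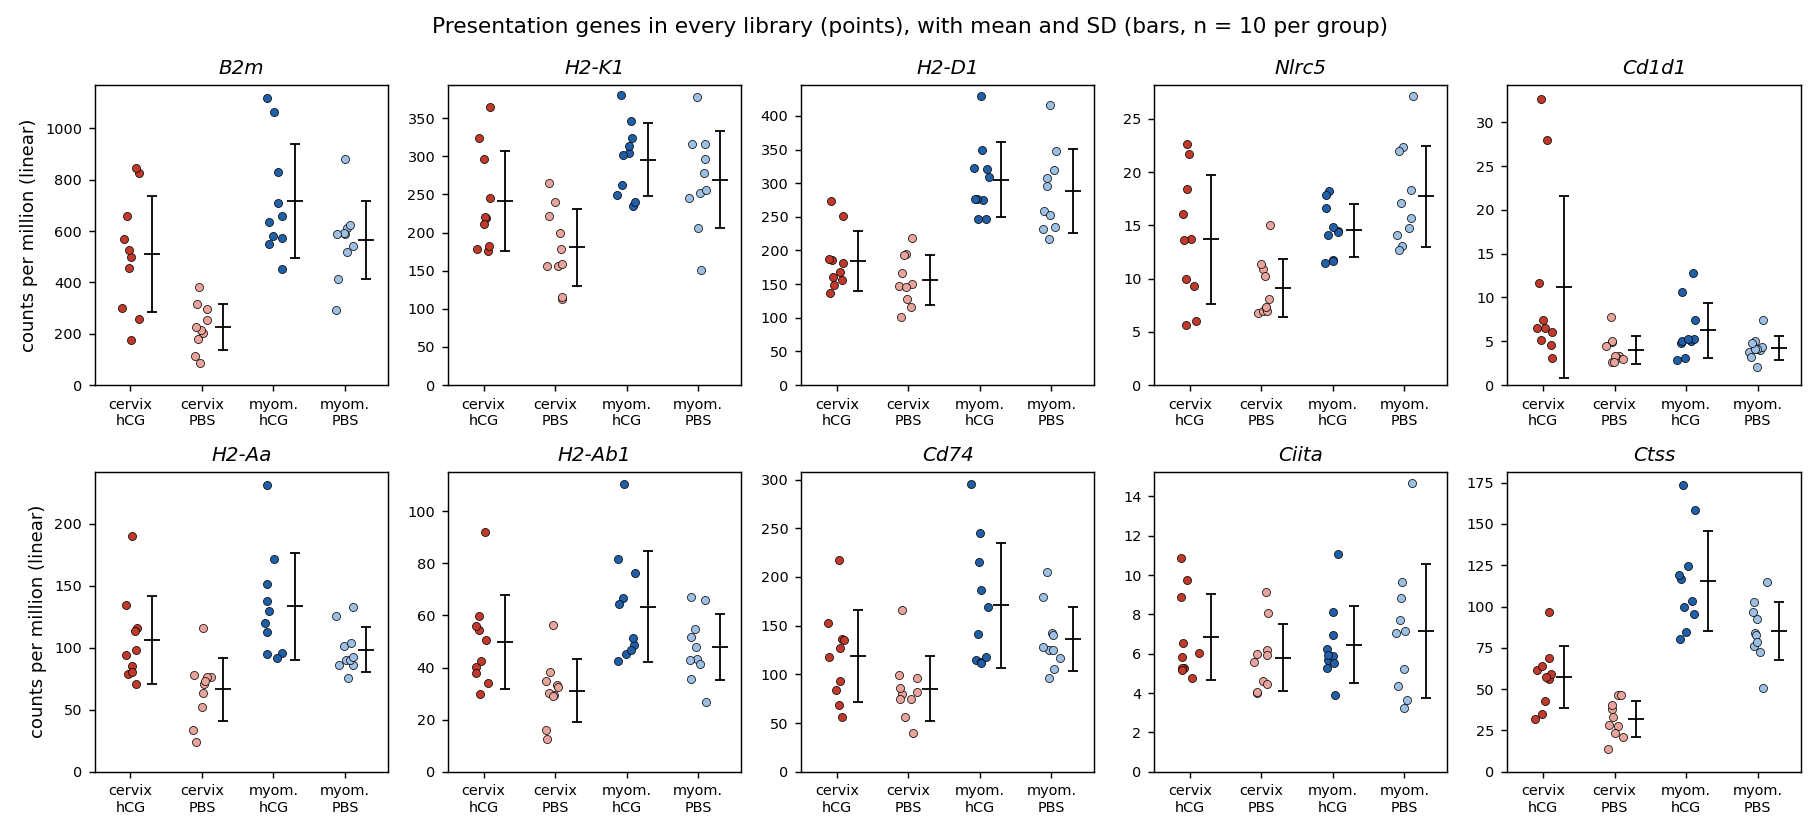
CPM of 10 presentation genes in each library (points, linear axes from 0), by tissue and treatment, with group mean and SD (bars, n = 10). In cervix, 7 of 10 hCG libraries lie above the highest PBS library for B2m and for Ctss, and the high Cd1d1 values of hCG mice come from few libraries.

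Among class II genes, Ctss (chr3:95526786-95556405), a protease that cuts the invariant chain, ran from 31.8 to 96.8 CPM, with a median of 58.1, in cervix of hCG mice, against 13.6 to 46.7 CPM, with a median of 30.8, in cervix of PBS mice. Its log2 fold change was 0.87 (SE 0.21, edgeR adjusted p 0.0293). All 10 hCG libraries were above the PBS median and 7 were above the highest PBS library. The reductase Ifi30, which opens disulfide bonds of antigens in the same compartment, had a log2 fold change of -0.01, at 24.7 ± 5.89 CPM in hCG mice and 25.2 ± 5.28 CPM in PBS mice (SD, n = 10 each).

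The class II chains themselves did not pass the threshold. H2-Aa (chr17:34282744-34287823), the alpha chain of the I-A molecule, ran from 70.6 to 190 CPM, with a median of 96.4, in hCG mice, against 23.8 to 116 CPM, with a median of 72.0, in PBS mice (log2 fold change 0.70, SE 0.22, edgeR adjusted p 0.0520). Its partner H2-Ab1 ran from 29.9 to 92.2 CPM, with a median of 46.5, in hCG mice, against 12.6 to 56.2 CPM, with a median of 31.2, in PBS mice (log2 fold change 0.70, SE 0.23, edgeR adjusted p 0.0530). For each of these chains 9 of the 10 hCG libraries lay above the PBS median and 2 above the highest PBS library. H2-Eb1, the beta chain of the I-E molecule, had a log2 fold change of 0.60 (SE 0.23, edgeR adjusted p 0.0898). Its partner H2-Ea, which C57BL/6 mice are known to lack in functional form, was at 0 counts in every cervix library of both treatments.

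Cd74, the invariant chain, ran from 56.1 to 217 CPM, with a median of 122, in hCG mice, against 40.1 to 166 CPM, with a median of 81.0, in PBS mice (log2 fold change 0.50, SE 0.23, edgeR adjusted p 0.161). The peptide exchange factors H2-DMa and H2-DMb1 and their modulator H2-Ob had log2 fold changes of 0.54, 0.25 and 0.39, none past the threshold. Ciita ran from 4.78 to 10.9 CPM, with a median of 5.93, in hCG mice, against 4.01 to 9.14 CPM, with a median of 5.77, in PBS mice (log2 fold change 0.26, SE 0.20, edgeR adjusted p 0.399). Whether the change of Ciita differed from that of the I-A chains was not tested.

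One library weighs on the class II values. In hCG mice, library 3 was the highest for H2-Aa, H2-Ab1, H2-Eb1, H2-DMa, H2-DMb1, H2-Ob, Cd74, Ciita and Ctss, and the same library had the highest summed macrophage and dendritic cell markers. Among PBS mice, library R3 was the highest for H2-Aa, H2-Ab1, H2-Eb1, H2-DMa, H2-DMb1 and Cd74, and library 7 the lowest for H2-Aa, H2-Ab1, H2-Eb1, H2-DMa and Cd74. Without library R3 the adjusted p of H2-Aa was 0.0228 and that of H2-Ab1 0.0224, with log2 fold changes of 0.83 and 0.84. Leaving out single libraries gave log2 fold changes from 0.57 (adjusted p 0.107) to 0.83 for H2-Aa and from 0.56 (adjusted p 0.110) to 0.84 for H2-Ab1, the lowest of them without hCG library 3.

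Cd1d1 (chr3:86995834-87012358), which shows lipids to natural killer T cells, had a log2 fold change of 1.52 in cervix (SE 0.40, edgeR adjusted p 0.0315). Its hCG libraries ran from 3.13 to 32.7 CPM, with a median of 6.54, against 2.58 to 7.75 CPM, with a median of 3.33, in PBS mice. The highest values were 32.7 CPM in library 1, 28.0 CPM in library 3 and 11.6 CPM in library 5, the libraries with RNA of neighbouring tissues, and the other 7 hCG libraries lay within the PBS range. Without libraries 1, 3 and 5 the log2 fold change was 0.51 (edgeR adjusted p 0.252). The RFX subunits, which hold the X box in both routes, did not pass the threshold: Rfx5 had a log2 fold change of 0.21, Rfxap of -0.09 and Rfxank of -0.25.

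The calls depended on which libraries entered the fit. Without hCG libraries 1, 3 and 5 no member was called, with log2 fold changes of 1.05 for B2m (edgeR adjusted p 0.0926) and 0.72 for Ctss (edgeR adjusted p 0.105), and 0 of 14755 genes were called in all. Without PBS libraries 5 to 8 none was called either, with log2 fold changes of 0.94 for B2m (edgeR adjusted p 0.0875), 0.78 for Ctss (edgeR adjusted p 0.0764) and 1.38 for Cd1d1 (edgeR adjusted p 0.116), and 1 of 15636 genes was called in all. Leaving out hCG library 3, or PBS library 4, 7 or 8 alone also ended all 3 calls, with adjusted p from 0.0523 to 0.0590 for B2m and from 0.0506 to 0.0623 for Ctss, and left from 1 to 8 genes called in all. Leaving out PBS library 10 ended the call of Cd1d1 (adjusted p 0.0509). In the shallower libraries alone no gene was called. There the log2 fold changes were 0.63 for B2m (edgeR adjusted p 0.799), 0.47 for Ctss (edgeR adjusted p 0.808) and 0.21 for Cd1d1 (edgeR adjusted p 0.907). In the deeper libraries alone, and with depth class as a term, B2m and Ctss were called and Cd1d1 was not.

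**Figure D3:**
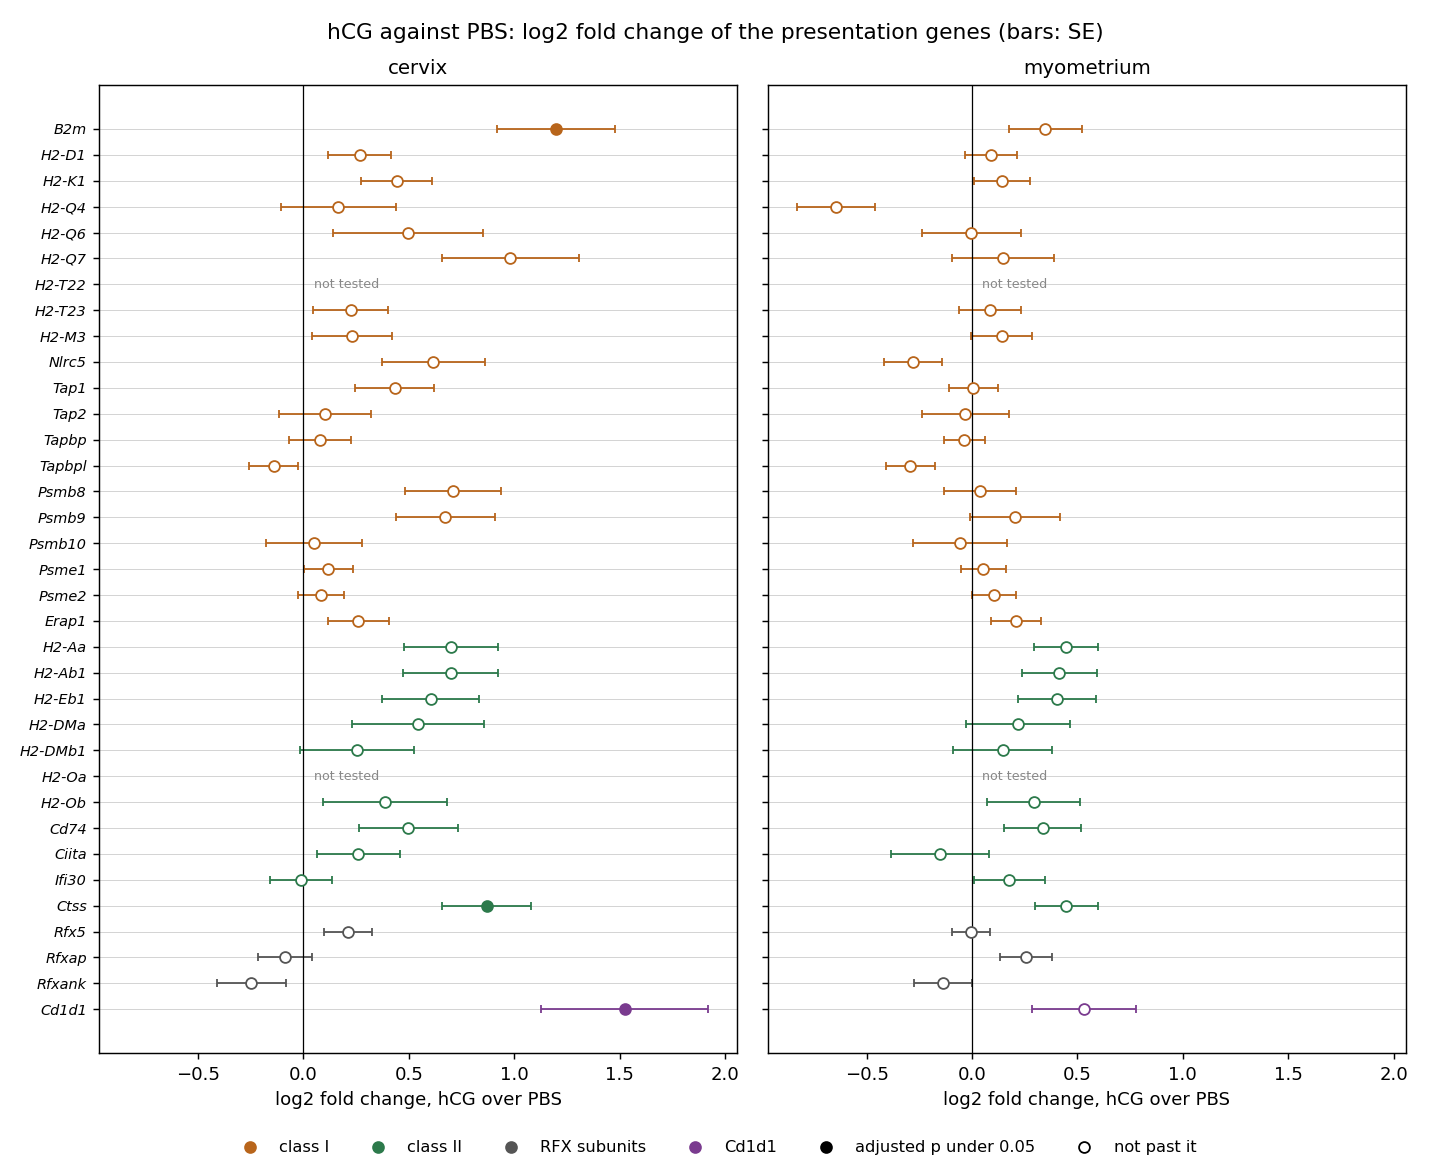
Log2 fold change, hCG over PBS, of each presentation gene in cervix (left) and myometrium (right), with SE bars; filled points passed an adjusted p of 0.05 over all genes. In cervix B2m, Ctss and Cd1d1 are filled; in myometrium no point is, and 9 of 10 class II genes lie to the right of 0.

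Most tested markers of leukocytes moved in the same direction as the presentation genes in cervix, and their part in the result was not tested. Of 4 tested T and NK cell markers and 3 tested B cell markers none passed the threshold, all with positive log2 fold changes. Summed pan-leukocyte markers stood at 236 ± 69.9 CPM in hCG mice and 136 ± 44.2 CPM in PBS mice, with ranges of 123 to 340 CPM and 64.6 to 206 CPM. Of the 8 genes of that list 4 rose, Cytip, Cd53, Ptprc and Lcp1. Summed dendritic cell markers stood at 48.9 ± 19.0 CPM in hCG mice and 32.9 ± 10.9 CPM in PBS mice, with 1 of 8 tested genes higher, the integrin Itgax (log2 fold change 1.07, edgeR adjusted p 0.0298). Summed macrophage markers ran from 473 to 1401 CPM in hCG mice and from 305 to 804 CPM in PBS mice, with 2 of 14 higher and 1 lower. Neutrophil markers, from cells that carry little class II, ran from 14.7 to 237 CPM in hCG mice and from 10.2 to 25.2 CPM in PBS mice, with 4 of 6 higher. Of 11 squamous epithelium markers 2 were lower in hCG mice, with a median log2 fold change of -1.15. None of these marker calls remained without hCG libraries 1, 3 and 5, where 0 of 14755 genes were called in all. Without PBS libraries 5 to 8 no gene was called higher, and 1 of 15636 was called lower.

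Genes of the same pathway outside the 35 were described by list. Of 19 tested genes of interferon gamma signalling 7 rose and none fell in cervix of hCG mice, with a median log2 fold change of 0.49. The 4 with the smallest p were the chemokine Cxcl10 (log2 fold change 2.78, edgeR adjusted p 0.0263) and the interferon-inducible GTPases Igtp (1.08), Gbp7 (1.02) and Irgm2 (0.95). Ifng itself was at 0 counts in all 10 cervix libraries of hCG mice. Its median was also close to 0 CPM in cervix of PBS mice and in myometrium of both treatments. Of 12 endosomal protease and costimulation genes 4 rose and none fell: Cd83, a maturation marker that keeps class II at the surface (log2 fold change 1.81, edgeR adjusted p 0.0263), the costimulatory ligands Cd86 (0.99) and Icosl (0.62), and Marchf1, a ligase that removes class II from the surface (0.86). Of 12 constitutive proteasome and peptide supply genes 1 fell and none rose: the activator Psme3 (log2 fold change -0.44, edgeR adjusted p 0.0286). Of 8 tested MHC genes outside the set 1 rose, H2-T10 (0.72), and of 7 X and Y box partners none changed. None of the rises in these lists was called without hCG libraries 1, 3 and 5 or without PBS libraries 5 to 8. The fall of Psme3 was not called without hCG libraries 1, 3 and 5 either.

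Class I and class II were then set side by side by a score, the mean log2 CPM of the 20 class I genes and of the 11 class II genes in each library, with no test because the genes were chosen with earlier results known. In cervix the class I score was 4.52 ± 0.27 in hCG mice and 4.19 ± 0.26 in PBS mice, a difference of 0.33 (SE 0.12). The class II score was 3.89 ± 0.43 in hCG mice and 3.51 ± 0.43 in PBS mice, a difference of 0.39 (SE 0.19). Class I minus class II therefore stood at 0.62 ± 0.35 in hCG mice and 0.68 ± 0.34 in PBS mice, a difference of -0.05 that is smaller than its SE of 0.15. With the median over genes in place of the mean this difference was 0.28, the other way round. Library 6 of the hCG mice combined a high class I score of 4.61 with the lowest class II score of its group, 3.26, whereas library 3 was highest in both, at 4.97 and 4.76.

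**Figure D4:**
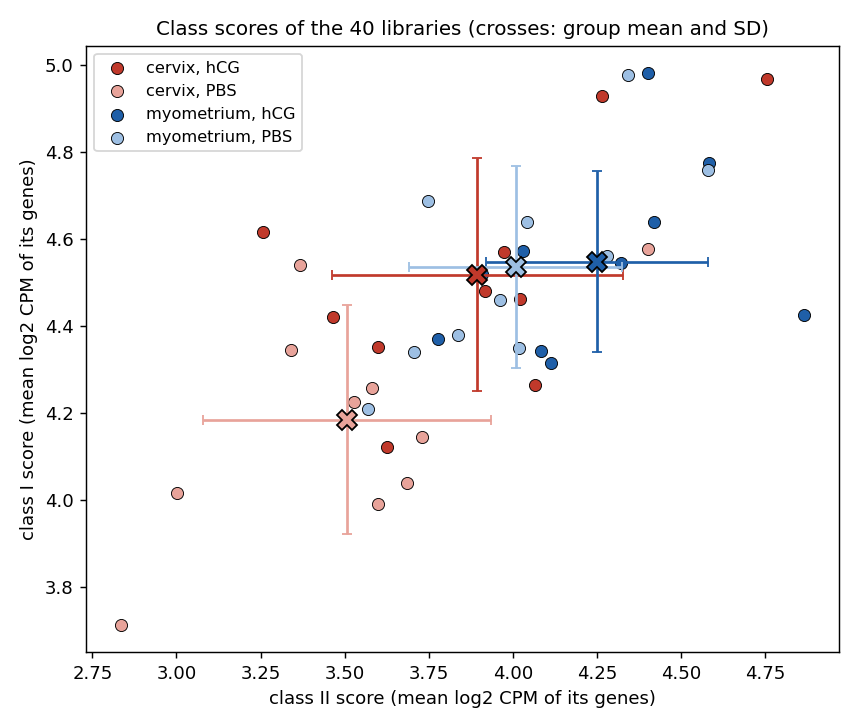
Class I score against class II score (mean log2 CPM of the genes of each class) of the 40 libraries, coloured by tissue and treatment, with group means and SDs as crosses. The cervix PBS mean lies lowest on both axes, and myometrium hCG library 9 has the highest class II score, 4.87, at a class I score of 4.42.

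In myometrium no member passed the threshold (edgeR), against 0.0138% of the 14517 genes tested (0.00689% higher and 0.00689% lower), and 8 of the 33 had an unadjusted p under 0.05, as 2255 of the 14517 genes did. DESeq2 called 1 of the 33, H2-Q4, which is named here after its values were seen: it ran from 29.7 to 80.4 CPM, with a median of 47.4, in hCG mice, against 36.2 to 117 CPM, with a median of 66.8, in PBS mice (log2 fold change -0.64, SE 0.19, edgeR adjusted p 0.105, DESeq2 adjusted p 0.0328). Class II and class I had different median log2 fold changes, 0.31 with 9 of 10 genes positive for class II and 0.05 with 12 of 19 positive for class I. Over all genes tested the median was 0.0084, with 7518 of 14517 positive. None of the class I and class II genes can be called changed one by one with edgeR.

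B2m ran from 452 to 1118 CPM, with a median of 647, in myometrium of hCG mice, against 292 to 879 CPM, with a median of 588, in myometrium of PBS mice (log2 fold change 0.35, edgeR adjusted p 0.341). H2-Aa ran from 92.0 to 232 CPM, with a median of 125, in hCG mice, against 75.8 to 133 CPM, with a median of 91.6, in PBS mice (log2 fold change 0.45, SE 0.15, edgeR adjusted p 0.146). Ctss had the same log2 fold change, 0.45 (SE 0.15, edgeR adjusted p 0.140), with a range of 80.2 to 174 CPM in hCG mice and of 50.7 to 115 CPM in PBS mice. The groups overlapped for each of these genes. Cd74 ran from 112 to 295 CPM in hCG mice and from 96.7 to 205 CPM in PBS mice, and H2-Ab1 from 42.7 to 110 CPM in hCG mice and from 26.8 to 67.2 CPM in PBS mice. H2-K1 (log2 fold change 0.14) and H2-D1 (0.09) had medians of 303 and 293 CPM in hCG mice, and of 267 and 277 CPM in PBS mice. Both transactivators had negative log2 fold changes here, -0.28 for Nlrc5 (edgeR adjusted p 0.335) and -0.15 for Ciita (edgeR adjusted p 0.825). Cd1d1 had a log2 fold change of 0.53 (edgeR adjusted p 0.300).

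The class II score of myometrium was 4.25 ± 0.33 in hCG mice and 4.01 ± 0.32 in PBS mice, a difference of 0.24 (SE 0.14), and the class I score was 4.55 ± 0.21 in hCG mice and 4.54 ± 0.23 in PBS mice, a difference of 0.01 (SE 0.10). Class I minus class II was 0.30 ± 0.32 in hCG mice and 0.53 ± 0.22 in PBS mice, a difference of -0.23 (SE 0.12). Library 9 of the hCG mice was highest for H2-Aa, H2-Ab1, H2-Eb1, H2-DMa, H2-DMb1, H2-Ob, Cd74 and Ciita and was the one library of its group in which the class II score exceeded the class I score. Summed macrophage markers were also highest in that library, at 1841 CPM. Yolk sac markers exceeded 1000 CPM in 6 hCG and 5 PBS libraries of myometrium, and without those libraries no member was called either (0 of 14835 genes were called in all). None of the pan-leukocyte, macrophage, dendritic cell, interferon gamma signalling or other pathway genes passed the threshold in myometrium, where summed pan-leukocyte markers stood at 356 ± 55.5 CPM in hCG mice and 317 ± 35.1 CPM in PBS mice. Leaving out PBS library 2 alone gave 1 call in the set, H2-Q4 (log2 fold change -0.73, adjusted p 0.0435), and 137 calls over all genes.

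The difference between the hCG responses of the tissues, cervix minus myometrium, was tested by an interaction term in a fit of all 40 libraries. No member passed (edgeR), against 0.352% of 15624 genes (0.128% higher and 0.224% lower), and 7 of the 33 had an unadjusted p under 0.05, as 3120 of the 15624 genes did, a like share. Nlrc5 came nearest to the threshold, with a difference in log2 fold change of 0.88 (SE 0.28, edgeR adjusted p 0.0922). Cd1d1 (0.97, SE 0.48), B2m (0.83, SE 0.34), H2-Q7 (0.83, SE 0.41) and H2-Q4 (0.80, SE 0.34) had differences of like size none with an adjusted p under 0.159. Leaving out cervix hCG library 9 or 10 gave 1 call, Nlrc5, with adjusted p of 0.0384 and 0.0418. For H2-Aa (0.24, edgeR adjusted p 0.655), H2-Ab1 (0.27) and Cd74 (0.15) the difference was smaller than its SE. That B2m was called in cervix and not in myometrium does not show that its responses differ.

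The tissues differed in many of these genes. In PBS mice 17 of the 33 tested members were called between cervix and myometrium (edgeR), 2 higher and 15 lower in cervix, where 54% of 14545 genes were called, 28% higher and 26.1% lower. The total is near that background. By class, 8 of 19 class I genes were lower and 1 higher, with a median log2 fold change of -0.16, and 7 of 10 class II genes were lower and none higher, with a median of -0.61, beside a median of 0.04 over all genes tested. The p-values treat the libraries as independent, although both tissues of one mouse may be among them.

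In PBS mice, B2m was 2.54-fold lower in cervix (log2 fold change -1.34, SE 0.22, edgeR adjusted p 2.14e-05), and H2-D1 (-0.91), H2-K1 (-0.60), H2-Q6 (-1.16) and H2-Q7 (-1.56) were lower with it. The cervix libraries ran from 84.1 to 384 CPM for B2m and from 102 to 218 CPM for H2-D1, against 292 to 879 CPM and 218 to 417 CPM in myometrium. Nlrc5 (-0.98, edgeR adjusted p 6.74e-05), tapasin Tapbp (-0.54) and Psmb8 (-0.62) were lower as well. H2-T23 went the other way, with a mean of 51.3 (SD 16.0) CPM among the 10 cervix libraries and 35.5 (SD 9.40) CPM among the 10 myometrium libraries (log2 fold change 0.51, SE 0.17, edgeR adjusted p 0.0119). The RFX subunit Rfxap was the other member higher in cervix (0.38, edgeR adjusted p 0.0155). Tap1, Tap2, Psmb9, Psmb10, Psme1, Psme2, Erap1, H2-M3, H2-Q4 and Tapbpl did not pass the threshold.

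Of class II, Ctss was 2.71-fold lower in cervix of PBS mice, at 13.6 to 46.7 CPM in cervix and 50.7 to 115 CPM in myometrium (log2 fold change -1.44, SE 0.18, edgeR adjusted p 8.94e-07). Ifi30 (-0.97), H2-DMa (-0.74), Cd74 (-0.69), H2-Ab1 (-0.64), H2-Aa (-0.59) and H2-Eb1 (-0.51) were also lower. Ciita (log2 fold change -0.33, edgeR adjusted p 0.272), H2-DMb1 and H2-Ob did not pass. Without myometrium PBS library 3 the call of H2-Eb1 was lost (adjusted p 0.0570). Without cervix PBS libraries 5 to 8, 13 members were called, 3 higher and 10 lower in cervix, against 54.7% of all genes. The calls of H2-K1 (-0.39, adjusted p 0.0618), Psmb8 (-0.41, adjusted p 0.117), H2-Aa (-0.38, adjusted p 0.0510), H2-Ab1 (-0.44, adjusted p 0.0624), H2-Eb1 (-0.35, adjusted p 0.120) and H2-DMa (-0.59, adjusted p 0.102) were then lost. Of class II the calls of Ctss, Ifi30 and Cd74 remained. H2-Q4 (-0.76, adjusted p 0.0135) and Psme2 (0.43, adjusted p 0.00432) were then called.

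In hCG mice 7 of the 33 members were called between the tissues, against 43.7% of 14974 genes, of which 24.3% were higher and 19.4% lower in cervix. Ctss (log2 fold change -1.02, edgeR adjusted p 0.000129), Ifi30 (-1.17), H2-D1 (-0.73) and Tapbp (-0.43) were lower in cervix, and H2-T23 (0.65), Psme2 (0.25) and Rfx5 (0.41) were higher. Without myometrium hCG library 5 the call of Psme2 was lost (adjusted p 0.0772). Ifi30 ran from 18.3 to 33.8 CPM in cervix and from 35.1 to 76.4 CPM in myometrium. Rfx5 ran from 25.8 to 34.1 CPM in cervix and from 18.6 to 24.1 CPM in myometrium. B2m (-0.50, edgeR adjusted p 0.105), H2-K1 (-0.30), H2-Aa (-0.34, edgeR adjusted p 0.150) and Cd74 (-0.53) did not pass. Without cervix hCG library 3, 14 members were called, B2m among them (-0.60, adjusted p 0.0487), and without libraries 1, 3 and 5, 12 were, 9 of them lower in cervix, against 46.9% of all genes: the 7 above and H2-Aa, H2-Ab1, Cd74, H2-Q6 and H2-Q7, all lower. The comparisons within PBS mice and within hCG mice share no library, but the change between them is the interaction given above, which no member passed.

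**Figure D5:**
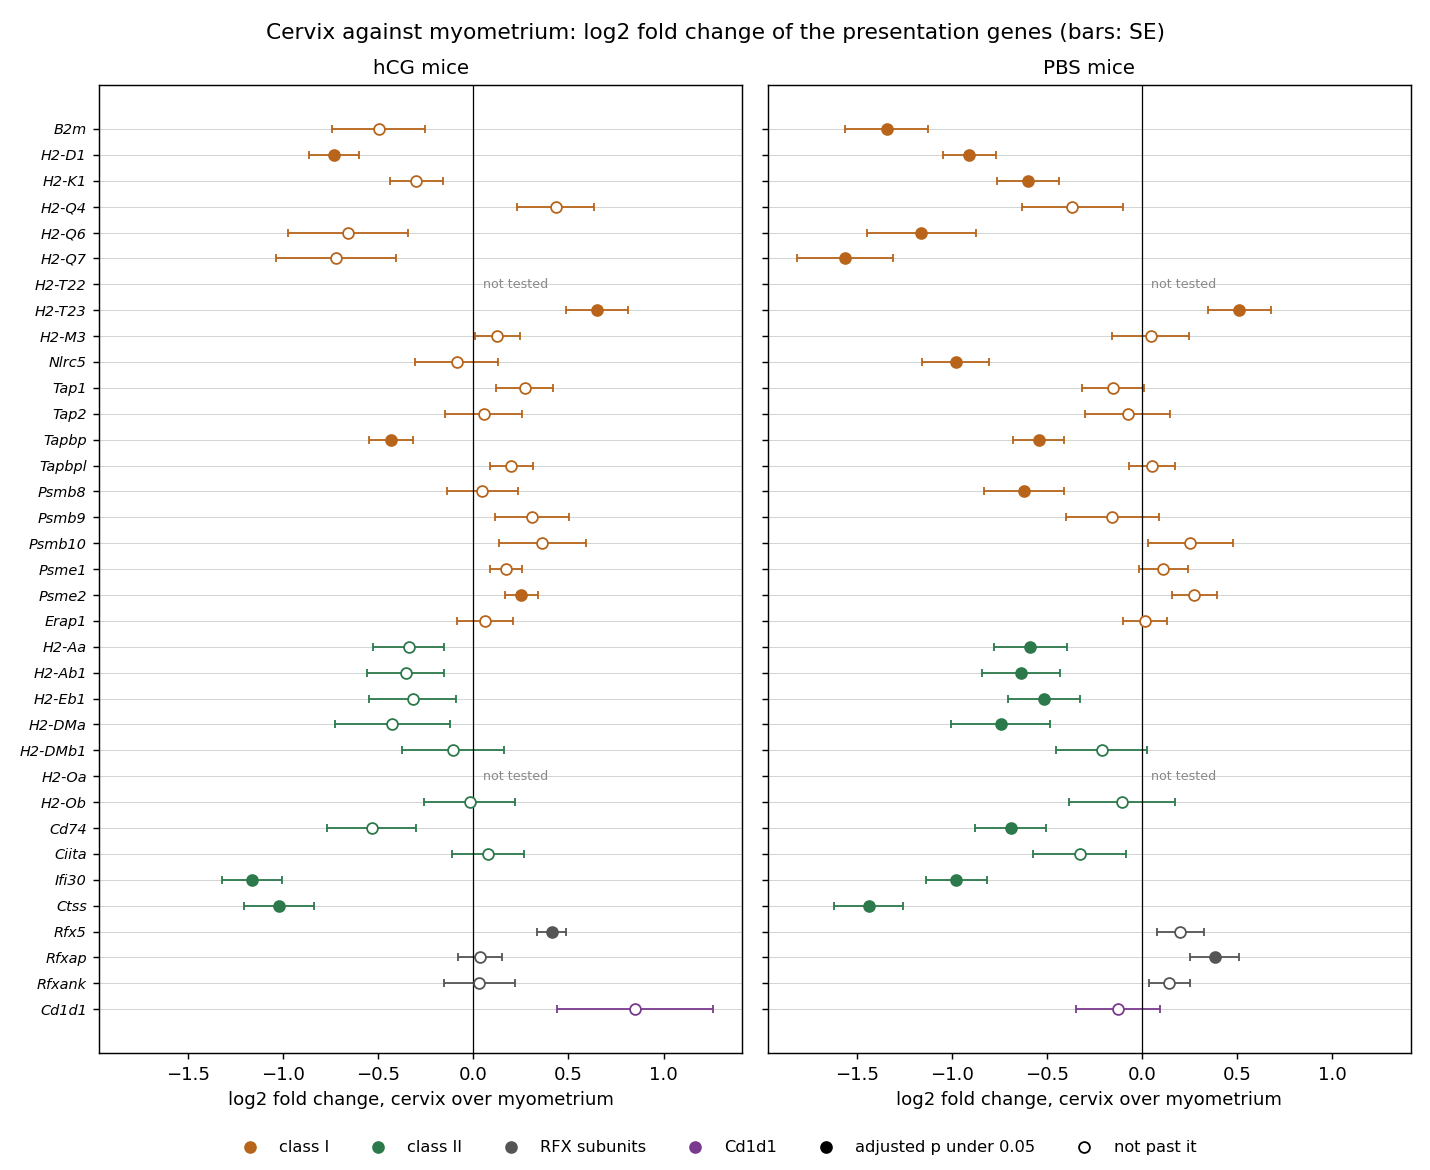
Log2 fold change, cervix over myometrium, of each presentation gene in hCG mice (left) and PBS mice (right), with SE bars; filled points passed an adjusted p of 0.05 over all genes. In PBS mice no class II gene lies to the right of 0, and H2-T23 lies to the right in both panels.

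Leukocyte markers differed between the tissues too, and their part in these differences was not tested. In PBS mice 8 of 8 pan-leukocyte markers and 11 of 14 macrophage markers were lower in cervix and 2 macrophage markers were higher, with summed pan-leukocyte markers of 64.6 to 206 CPM in cervix and 260 to 373 CPM in myometrium, and summed macrophage markers of 305 to 804 CPM in cervix and 994 to 1918 CPM in myometrium. In hCG mice 4 of 8 pan-leukocyte and 10 of 14 macrophage markers were lower in cervix, and 2 macrophage markers and 5 of 6 neutrophil markers were higher. Of 12 endosomal protease and costimulation genes 10 were lower in cervix of PBS mice, led by the cathepsin Ctsb (log2 fold change -3.30), Cd83 (-2.42), Marchf1 (-1.67) and the protease legumain (Lgmn), and 9 were lower and 1, Icosl, higher in cervix of hCG mice. Of 18 tested interferon gamma signalling genes 12 were lower and 2 higher in cervix of PBS mice, among them the kinase Jak2 (-1.95) and the receptor chain Ifngr1 (-1.19). Of 8 other MHC genes 6 were lower and 1, Mr1, higher in cervix of PBS mice, with Fcgrt, the neonatal Fc receptor that also pairs with B2m, at -1.37.

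Both class scores were compared between the tissues in the same way. In PBS mice the class I score was 4.19 in cervix and 4.54 in myometrium (difference -0.35, SE 0.11), and the class II score was 3.51 in cervix and 4.01 in myometrium (difference -0.50, SE 0.17). In hCG mice the class I score differed by -0.03 (SE 0.11) and the class II score by -0.36 (SE 0.17). Class I minus class II in cervix less that in myometrium was 0.15 (SE 0.13) in PBS mice and 0.33 (SE 0.15) in hCG mice.

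The transactivators were related to their genes over the 10 libraries of each group, since the tissues form separate clusters. Of 32 relations, made of Ciita and Nlrc5 each with H2-Aa, H2-Ab1, H2-K1 and B2m in 4 groups, 1 passed: Nlrc5 with B2m in cervix of hCG mice (Pearson r = 0.87, permutation p = 0.00133, adjusted p = 0.0426; Spearman rho = 0.79, permutation p = 0.00871, adjusted p = 0.279). Without the 2 libraries farthest from the median of Nlrc5 its r was 0.66, and over the 6 deeper libraries, replicates 1 to 6, it was 0.47. Neither value passed, with fewer libraries in each. Ciita with H2-Aa and with H2-Ab1 in the same group had r of 0.77 and 0.78 (permutation adjusted p = 0.0848 for each), which were 0.54 and 0.46 without the farthest libraries. In cervix of PBS mice, Ciita had r of -0.08 with H2-Aa and -0.10 with H2-Ab1, and Nlrc5 had r of 0.27 with B2m. In myometrium, Nlrc5 had r of 0.71 with H2-Aa in hCG mice and -0.27 in PBS mice, neither past the threshold after adjustment.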

How the data were processed

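The authors deposited raw counts per gene for 40 libraries made with a stranded total RNA kit. TopHat2 and GRCm38 are named in the submitters' processing notes; no source used here names the counting tool, its annotation or its strand setting. Libraries titled uterus are called myometrium here, after their tissue label. Of 23079 gene identifiers 23008 matched a symbol; the other 71 held 0.197% of the counts. Groups came from the labels. The members and lists were chosen with earlier results of these data known.

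The main test was edgeR 4.0.16 (R 4.3.3, limma 3.58.1): filterByExpr, TMM factors, robust quasi-likelihood F-test within the groups compared, Benjamini-Hochberg adjustment over all genes tested, threshold 0.05. CPM are TMM-scaled over all 40 libraries; log2 CPM used a prior count of 2. Levels per kb divide by the exon length of the GENCODE M21 transcript with the longest coding sequence. DESeq2 1.42.0, other factors, other filters, the label number as a block, depth class and left-out libraries were alternatives. Permutation p-values used 100000 resamples and are two-sided. The edgeR test was tried on simulated counts for hCG against PBS in each tissue and for the tissues of PBS mice. The other comparisons, the class scores and the relations were not simulated. p-values measure the spread between libraries. Values are shown for all members, by library for B2m, H2-K1, H2-D1, H2-Aa, H2-Ab1, Cd74, Ciita, Nlrc5 and any member called with hCG, and for up to 4 called genes with the smallest p of each other list. Counts limit precision most for H2-T22, H2-Oa, H2-Q6, H2-Q7 and H2-Ob, which lie at a few CPM or less.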

Additional observations from a re-analysis of the deposited data

Results flagged for a closer look

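In 52 sets of 10 libraries (10 genes and 3 class scores in 4 groups) the highest and lowest library were compared with the rest by Dixon's criterion, which chance meets in about 1 of 20 groups. It was met 5 times. In cervix of hCG mice, library 3 stood at 190 CPM for H2-Aa, with the nearest library at 134 CPM, and at 92.2 CPM for H2-Ab1, with the nearest at 59.9 CPM. In cervix of PBS mice, library R3 stood at 166 CPM for Cd74, with the nearest at 99.4 CPM, and at 7.75 CPM for Cd1d1, with the nearest at 4.98 CPM. In myometrium of hCG mice, class I minus class II was -0.44 in library 9, with the nearest library at 0.19.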

How the results depend on the processing

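In cervix, 3 members were called with hCG. The count was 10 at an adjusted p under 0.1 (19.4% of all genes) and 8 with DESeq2 (15.3%). It was 6 with upper-quartile factors (9.69%) and 12 with all 40 libraries in 1 fit (21.9%). With depth class as a term it was 2 (3.4%), and in the deeper libraries alone it was 2 (1.53%). It was 0 in the shallower libraries alone, without hCG libraries 1, 3 and 5 and without PBS libraries 5 to 8, where 0, 0 and 1 genes were called in all. Leaving out 1 library gave from 0 to 10, with from 1 to 2065 genes called in all. In myometrium the count was 0, and 1 with DESeq2 (2.65% of all genes). With 1 library left out it was at most 1, with from 1 to 137 genes called in all. Between tissues, leaving out 1 library gave from 16 to 18 in PBS mice, with from 7512 to 8235 genes in all. In hCG mice it gave from 7 to 14, with from 6101 to 7048 genes in all. There, 13 were called at an adjusted p under 0.1 (50.9% of all genes) and 12 without hCG libraries 1, 3 and 5 (46.9%). The difference of responses gave 0, with 1 at an adjusted p under 0.1 (4.74% of all genes). With 1 library left out it gave from 0 to 1, with from 0 to 678 genes in all.

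Whether equal label numbers mark one mouse could not be settled. For hCG against PBS, which cannot share a mouse, same-numbered libraries correlated above 0.1 in 4 of 9 pairs in cervix and 3 of 8 in myometrium. Between the tissues they did so in 5 of 9 pairs in PBS mice (median r 0.14, against -0.021 for other numbers). In hCG mice it was 3 of 9 pairs (median r 0.063, against -0.015). With the replicate block 4 members were called in cervix (7.71% of all genes), 0 in myometrium (0.0138%) and 0 for the difference of responses (0%). Between the tissues 20 were called in PBS mice (56% of all genes) and 6 in hCG mice (38.7%). Cd1d1 in cervix (adjusted p 0.0887) and Psme2 between tissues in hCG mice (adjusted p 0.0759) were not among them. Newly called were H2-Ab1 and Psmb9 in cervix (edgeR adjusted p 0.0429 and 0.0394). Between tissues in PBS mice H2-Q4, Psmb10 and Psme2 were newly called (edgeR adjusted p 0.0160, 0.0434 and 0.00449).

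With the median over genes in place of the mean, class I minus class II in cervix less myometrium was 0.59 in PBS mice and 1.22 in hCG mice. Of the 32 relations, 0 passed without the 2 farthest libraries or within depth classes. Values that turned sign, none of them called, were -0.0078 for Ciita and -0.067 for Nlrc5 in the shallower cervix libraries; 0.055 for Ciita in myometrium without yolk sac libraries, and from -0.27 to 0.018 with 1 library left out; 0.0011 for Cd1d1 between tissues in PBS mice without cervix PBS libraries 5 to 8; -0.16 for Cd1d1 between tissues in hCG mice and -0.023 for its difference of responses, both without hCG libraries 1, 3 and 5; and -0.04 for the Cd74 difference of responses with the replicate block. Between tissues in hCG mice with 1 library left out, Ciita ran from -0.025 to 0.19 and Nlrc5 from -0.20 to 0.0013. The causes were not tested. The exclusions between tissues and for the difference of responses were chosen after seeing the data.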
